A study of Mus musculus with 2 samples.

Results

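The Bcl2 family was followed through 10 genes: the survival genes Bcl2, Bcl2l1, Mcl1, Bcl2a1b and Bcl2a1d, the effector genes Bax and Bak1, and the BH3-only genes Bid, Bcl2l11 and Bbc3. They were matched by gene symbol, as 10 of the 32285 genes in the 2 deposited count matrices. The family sets whether the mitochondrial outer membrane stays closed. Bax and Bak1 form pores in that membrane, which release cytochrome c and start the caspases. Survival proteins hold the effectors and the BH3-only proteins in check, and the BH3-only proteins carry death signals to both. In the neutrophil lineage Mcl1 is known to be needed for the survival of maturing cells.

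The cells were mouse promyelocytes transformed by PLZF/RARA, the fusion of acute promyelocytic leukemia that responds poorly to retinoic acid, taken from leukemic bone marrow. Both groups carried the fusion. The promoter that drives it, the strain and the age of the mice are not given in the sources used here. Mice received either vehicle (corn oil with 10% DMSO) or 0.8 to 1 mg of retinoic acid by intraperitoneal injection for 7 days, in a cohort of 3 to 5 mice. Late promyelocytes were sorted as Cd45.2+, C-Kit+, Gr1+, Cd34- and FcγR+ and run on a droplet platform aimed at 6000 cells, 1 library per treatment. With 1 library each there is no replicate error: no difference was tested, the intervals given are 95% intervals that cover counting error only, and treatment, mouse and library cannot be told apart.

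After filtering, 5476 vehicle cells and 7140 retinoic acid cells remained, with 99107718 and 110088247 UMIs (counted molecules) and medians of 16750 and 14604 UMIs per cell. The libraries shared 11 barcodes. The median mitochondrial share of UMIs was 1.98% under vehicle and 1.23% under retinoic acid. Levels are given as CPM, a gene's counts divided by the UMIs of its library on the usual CPM scale. The chemistry counts 3′ ends of molecules, so CPM was not divided by gene length. All 7 promyelocyte markers were above 3 counts in both libraries, with summed levels of 8315 and 18926 CPM, but Mpo, a defining one, was at 311 CPM under vehicle and 0.50 CPM under retinoic acid. The 7 mast cell and basophil markers summed to 803 CPM under vehicle and 68.1 CPM under retinoic acid. Of these, 6 and 5 were above 3 counts, Fcer1a was at 0 in both libraries, and Cpa3 made up most of the vehicle sum at 570 CPM. Although the gate left out Cd34+ cells, Cd34 RNA was at 53.8 CPM under vehicle and 0.118 CPM under retinoic acid, while Kit was at 19.3 and 16.7 CPM. The part of these differences in cell makeup in the results below was not tested, except where values by cell class are given, and fewer cells of a type cannot be told apart from less RNA per cell in whole-library values.

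All 10 genes matched the RefSeq promoter table (GRCm38.p6), with 15 windows running from 250 bases before to 50 bases after a start. The windows of Bcl2, Bcl2l11 and Bbc3 are printed because these genes had the largest differences between the libraries among the well-measured members. For genes with several starts the first in the table's order of position is shown. Capitals mark matches, on either strand, to the GC box GGGCGG, the CCAAT box CCAAT, the retinoic acid receptor half-site AGGTCA, the E-box CACGTG, the forkhead site GTAAACA and the CRE half-site TGACGT.
Bcl2 (chr1:106714241-106714540, minus strand): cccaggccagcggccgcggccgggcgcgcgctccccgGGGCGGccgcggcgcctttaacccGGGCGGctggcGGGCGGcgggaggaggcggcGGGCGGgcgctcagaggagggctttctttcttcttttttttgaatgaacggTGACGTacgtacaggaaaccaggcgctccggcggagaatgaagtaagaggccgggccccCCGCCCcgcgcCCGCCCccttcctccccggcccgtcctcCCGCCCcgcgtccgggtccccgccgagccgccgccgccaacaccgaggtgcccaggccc
Bcl2l11 (chr2:128125788-128126087, plus strand): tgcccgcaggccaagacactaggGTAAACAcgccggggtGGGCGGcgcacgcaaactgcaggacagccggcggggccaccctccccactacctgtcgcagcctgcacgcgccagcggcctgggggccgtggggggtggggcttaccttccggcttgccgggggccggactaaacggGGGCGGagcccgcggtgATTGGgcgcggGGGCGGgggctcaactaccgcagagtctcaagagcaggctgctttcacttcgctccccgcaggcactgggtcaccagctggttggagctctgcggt
Bbc3 (chr7:16309333-16309632, plus strand): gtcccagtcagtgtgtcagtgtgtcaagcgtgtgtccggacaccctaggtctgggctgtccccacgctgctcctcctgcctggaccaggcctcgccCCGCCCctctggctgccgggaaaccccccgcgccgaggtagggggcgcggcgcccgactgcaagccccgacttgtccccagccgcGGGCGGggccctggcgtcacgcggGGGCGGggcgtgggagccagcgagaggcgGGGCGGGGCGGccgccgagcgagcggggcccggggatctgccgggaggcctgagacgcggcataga
The Bcl2 window held 7 GC boxes and 1 CRE half-site, in a sequence of 76% G and C, against a median of 53% over all promoters. The Bcl2l11 window held 3 GC boxes, 1 CCAAT box and 1 forkhead site, and the Bbc3 window held 5 GC boxes. A GC box was in 11 of the 15 members' windows, against 35.9% of 32544 promoters of the same length. The 15 windows belong to 10 genes and are not all separate: the Bbc3 windows that start at 16310011 and 16310181 overlap. The retinoic acid receptor half-site was in 1 of the 15, a window of Bcl2l1, against 16.2% of all promoters. The forkhead site was in 2 of the 15, against 3.66% of all, the CCAAT box in 3 (37.4% of all), the E-box in 2 (7.17% of all) and the CRE half-site in 1 (7.55% of all). These matches describe the letters of the windows and no more.

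Bcl2 (ENSMUSG00000057329, chromosome 1, 106538178 to 106714274, minus strand, GRCm38), the founding survival gene of the family, had the largest difference of the well-measured members. It was at 62.8 CPM (61.2 to 64.3) under vehicle and 5.49 CPM (5.06 to 5.94) under retinoic acid, from 6220 and 604 counts. The retinoic acid level was 11.4-fold lower, a log2 ratio of -3.51 (-3.64 to -3.40). Among the 8804 genes with a mean of at least 5 CPM, 63 had a log2 ratio as low as this or lower, Bcl2 included. The share of cells with a Bcl2 UMI, after each cell was thinned to 5000 UMIs, was 24.7% (23.6 to 25.9) of 5282 vehicle cells and 2.39% (2.03 to 2.78) of 6659 retinoic acid cells. Without thinning the shares were 57.0% and 7.49%. The thinned share with 2 or more Bcl2 UMIs was 4.88% under vehicle and 0.075% under retinoic acid. No cell type known to lack Bcl2 was set apart in these sorted cells, so the share that free RNA gives could not be read. Bcl2 was at 61.9 CPM (60.1 to 63.7) in the 4101 vehicle cells without a Cd34 UMI after thinning. In the 1181 cells with one it was at 64.3 CPM (61.0 to 67.7). The log2 ratio of the retinoic acid library over the cells without one was -3.49 (-3.62 to -3.37). At this depth a cell without a Cd34 UMI may still hold Cd34 RNA. The split therefore does not separate Cd34- from Cd34+ cells, and the Bcl2 level of Cd34- cells alone could not be read. An exon of the opposite-strand gene D630008O14Rik overlaps Bcl2, and the strand setting of the counting is not given in the sources used here.

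Mcl1 (ENSMUSG00000038612, chromosome 3, 95658788 to 95663176, plus strand), a short-lived survival protein that binds Bak1 and Bcl2l11, was the most abundant survival gene in both libraries. It was at 109 CPM (107 to 111) under vehicle and 124 CPM (122 to 126) under retinoic acid, a log2 ratio of 0.19 (0.15 to 0.23). A Mcl1 UMI was found in 40.5% of thinned vehicle cells and 46.3% of thinned retinoic acid cells. Bcl2l1 (ENSMUSG00000007659, chromosome 2, 152780668 to 152831728, minus strand), which encodes Bcl-xL, was at 13.6 CPM (12.9 to 14.3) and 12.6 CPM (11.9 to 13.2), a log2 ratio of -0.11 (-0.22 to -0.00). Its thinned shares of cells were 6.61% and 6.01%. The order Mcl1, Bcl2, Bcl2l1 under vehicle was thus Mcl1, Bcl2l1, Bcl2 under retinoic acid, with no overlap of the intervals in either library.

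Bcl2a1b and Bcl2a1d, 2 of the mouse copies of the survival gene A1, were close to the floor of 3 counts (0.030 CPM under vehicle and 0.027 CPM under retinoic acid). Bcl2a1b had 5 counts under vehicle and 11 under retinoic acid, and Bcl2a1d had 3 and 9, so the intervals of both log2 ratios include 0. The copies are nearly identical: 82.1% of the 60-base windows in the last 500 transcript bases of Bcl2a1b and 80.7% of those of Bcl2a1d also occur in other A1 genes, so reads may have been split between them or dropped. The related copy Bcl2a1a had 3 and 47 counts, 0.030 and 0.427 CPM, a log2 ratio of 3.61 (2.18 to 6.15), with the same uncertainty between copies.

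Among the effectors, Bax (ENSMUSG00000003873, chromosome 7, 45461697 to 45466898, minus strand) was the highest of all 10 members. It was at 253 CPM (250 to 256) under vehicle and 297 CPM (294 to 301) under retinoic acid, a log2 ratio of 0.23 (0.21 to 0.26). A Bax UMI was found in 68.8% and 71.0% of thinned cells. In the last 500 transcript bases, 15.6% of Bax windows are shared with Gm45808. Bak1 (ENSMUSG00000057789, chromosome 17, 27019810 to 27029009, minus strand), the second pore-forming gene, was at 39.1 CPM (37.8 to 40.3) and 53.6 CPM (52.2 to 55.0), a log2 ratio of 0.46 (0.40 to 0.52). Its thinned shares of cells were 16.9% and 22.3%. An exon of Ggnbp1 overlaps Bak1 on the opposite strand.

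Among the BH3-only genes, Bcl2l11 and Bbc3 stood on opposite sides. Bcl2l11 (ENSMUSG00000027381, chromosome 2, 128126038 to 128162547, plus strand), which encodes Bim, a killer of cells deprived of cytokines, was at 3.85 CPM (3.48 to 4.26) under vehicle and 10.9 CPM (10.3 to 11.6) under retinoic acid. The retinoic acid level was 2.83-fold higher, a log2 ratio of 1.501 (1.33 to 1.67), and 114 of the 8804 genes had one as high or higher, Bcl2l11 included. Its thinned shares of cells were 2.25% (1.87 to 2.69) and 5.62% (5.08 to 6.197). Bbc3 (ENSMUSG00000002083, chromosome 7, 16308393 to 16318205, plus strand), which encodes Puma, a target of p53, was at 26.7 CPM (25.7 to 27.7) and 14.2 CPM (13.5 to 14.9). The retinoic acid level was 1.88-fold lower, a log2 ratio of -0.91 (-1.01 to -0.82), with thinned shares of 13.6% and 7.31% of cells. Bid (ENSMUSG00000004446, chromosome 6, 120891930 to 120916853, minus strand), which links caspase-8 to the mitochondria, was at 50.9 CPM (49.5 to 52.3) and 37.0 CPM (35.9 to 38.2), a log2 ratio of -0.46 (-0.52 to -0.40). Its thinned shares were 20.9% and 15.6%, and an exon of Bcl2l13 overlaps it on the opposite strand.

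**Figure D1:**
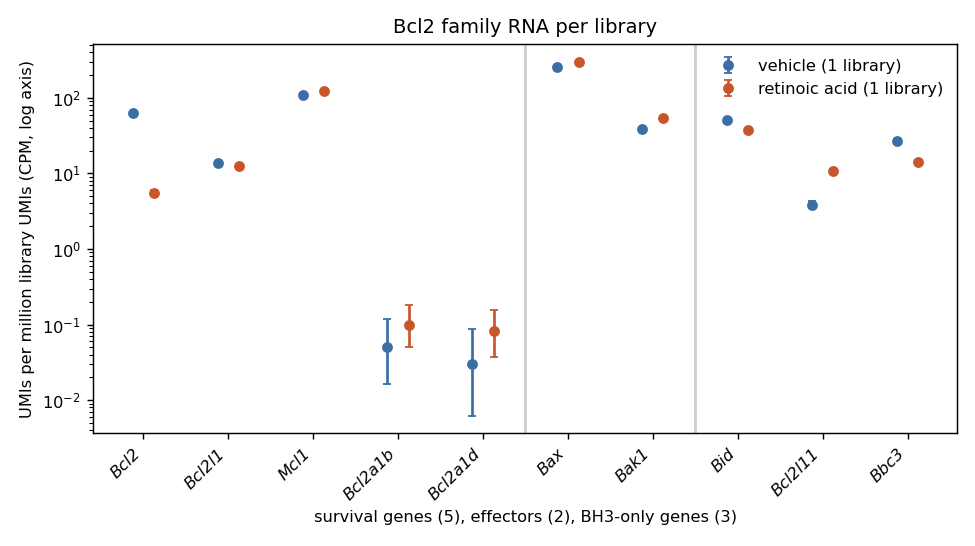
Level of each member in CPM (log axis) in the vehicle and the retinoic acid library, 1 library each, with exact Poisson 95% intervals that cover counting error only. Bcl2 has the widest gap of the members above 5 CPM (62.8 against 5.49 CPM), and Bcl2a1b and Bcl2a1d lie near the floor of 3 counts.

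Of the 10 members, 8 passed the mean of 5 CPM, all but Bcl2a1b and Bcl2a1d. Of these 8, 1 was past 2-fold higher under retinoic acid (Bcl2l11) and 1 past 2-fold lower (Bcl2). Bcl2l11 passed only through the retinoic acid library, at 10.9 CPM there and 3.85 CPM under vehicle. Over all 8804 genes that passed, 2.92% were past 2-fold higher and 5.59% past 2-fold lower. The members' median log2 ratio was 0.04, with 4 above and 4 below 0 and quartiles of -0.57 and 0.29. That of all genes was -0.01, with quartiles of -0.27 and 0.24. A second scaling of the libraries (TMM) moved every log2 ratio by 0.08, with a median over all genes of 0.07. Relative to the other genes no member's place changes with it.

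By role, the 5 survival genes summed to 185 CPM (182 to 188) under vehicle and 142 CPM (140 to 144) under retinoic acid. The 2 effectors summed to 292 CPM and 351 CPM, and the 3 BH3-only genes to 81.4 CPM and 62.1 CPM. The ratio of survival to effector UMIs was 0.634 under vehicle and 0.405 under retinoic acid. The ratio of survival to BH3-only UMIs was nearly the same in both libraries, at 2.27 and 2.29, while its makeup was not. Mcl1 supplied 58.7% of the survival UMIs under vehicle and 87.2% under retinoic acid, and Bcl2 supplied 33.9% and 3.86%. These are sums of RNA and say nothing of protein.

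Within single cells thinned to 5000 UMIs, Mcl1 and Bcl2 UMIs were found together in 10.1% (9.27 to 10.9) of vehicle cells and 1.10% (0.860 to 1.38) of retinoic acid cells. Mcl1 without Bcl2 was found in 30.5% (29.2 to 31.7) and 45.2% (44.0 to 46.4). Cells with at least 1 UMI of Bcl2, Bcl2l1 or Mcl1 made up 58.0% (56.6 to 59.3) and 50.7% (49.5 to 51.9). Bcl2l11 without Bcl2 was found in 1.55% (1.24 to 1.92) of vehicle cells and 5.53% (4.99 to 6.10) of retinoic acid cells. At this depth a cell without a UMI may still hold the transcript, so these shares rank the libraries and do not count expressing cells. Whether Mcl1 and Bcl2 occurred together more or less often than their separate shares of cells would give was not tested.

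Of a list of 42 other genes of the apoptosis pathway, 35 passed the mean of 5 CPM. None of the 35 was past 2-fold higher and 1 was past 2-fold lower, and their median log2 ratio was 0.05. The 1 gene was Bnip3, a mitochondrial BH3-like gene of mitophagy, at 92.1 CPM under vehicle and 22.3 CPM under retinoic acid, a log2 ratio of -2.04 (-2.11 to -1.98). Diablo, whose product relieves the caspase inhibitors, was at 47.9 CPM and 25.5 CPM, a log2 ratio of -0.91 (-0.98 to -0.84). The caspase inhibitor Xiap was at 16.9 CPM and 23.4 CPM (log2 ratio 0.47), and Birc5, also a mitotic gene, at 151 CPM and 220.0 CPM (0.54). The adaptor of the apoptosome, Apaf1, was at 23.7 CPM and 30.6 CPM (0.37), its initiator caspase Casp9 at 7.82 CPM and 6.21 CPM (-0.33), and cytochrome c, Cycs, at 85.6 CPM and 69.6 CPM (-0.30).

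Of the other family genes in that list, those above 5 CPM were within 2-fold, Bnip3 apart. The survival gene Bcl2l2 was at 8.07 CPM and 8.92 CPM (log2 ratio 0.14). The BH3-only gene Bad was at 58.4 CPM and 61.7 CPM (0.08), Bik at 5.00 CPM and 5.995 CPM (0.26), and Pmaip1, which encodes Noxa, at 11.0 CPM and 8.36 CPM (-0.39). Below 5 CPM, the effector-like gene Bok was at 0.848 CPM and 3.53 CPM, a log2 ratio of 2.05 (1.72 to 2.42), and Bmf was at 1.64 CPM and 0.972 CPM. Hrk had no count in either library, so its level can only be placed under the floor of 3 counts (0.030 CPM under vehicle and 0.027 CPM under retinoic acid), and Bcl2l10 had 0 and 1 counts.

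**Figure D2:**
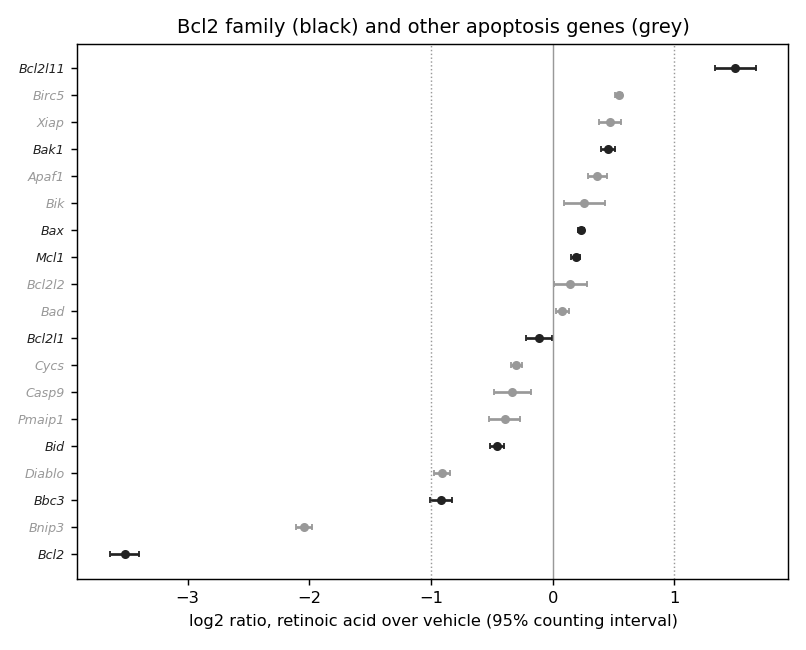
Log2 ratio of retinoic acid over vehicle for the 8 members (black) and 11 of the 35 other apoptosis genes above 5 CPM (grey), those whose library values the text gives, with 95% intervals that cover counting error only; dotted lines mark 2-fold. Bcl2 lies at -3.51 and Bcl2l11 at 1.501, the other 6 members lie between -0.91 and 0.46, and of the grey genes drawn Bnip3 alone is past a dotted line.

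The granule share of a cell was the percent of its UMIs from Camp, Ngp, Ltf and Lcn2, genes of secondary granule proteins that mark the step from promyelocyte to myelocyte and beyond. Cells of each library were ranked by it into 4 groups of equal size. Group medians were 0.005%, 0.017%, 0.035% and 0.114% under vehicle and 0.304%, 1.05%, 3.47% and 12.1% under retinoic acid, so the groups of the libraries do not match each other. Member levels along the share are CPM with those 4 genes left out of the total. In the retinoic acid library the highest group also had fewer UMIs per cell, with a median of 10028 against 17368 in the lowest group, and more cells called G1, 38.3% against 13.9%. Values within phases are given below, and the part of depth was not tested. In the lowest vehicle group the median cell had 15264 UMIs, so shares as small as those of the lower vehicle groups rest on few granule UMIs. The part of free RNA and of sampling in the vehicle ranking was not tested.

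Bcl2 was lower in each step along the share in both libraries. Under retinoic acid it was at 8.17 CPM (7.21 to 9.23), 6.51 CPM (5.63 to 7.49), 4.07 CPM (3.35 to 4.90) and 2.09 CPM (1.46 to 2.91) from the lowest to the highest group. The log2 ratio of the highest over the lowest group was -1.95 (-2.52 to -1.45). Under vehicle it was at 76.3 CPM (72.8 to 80.0), 70.9 CPM (67.8 to 74.1), 59.4 CPM (56.5 to 62.4) and 44.2 CPM (41.5 to 47.0), a log2 ratio of -0.79 (-0.90 to -0.68). Neighbouring intervals overlapped between the lowest and the second group in both libraries and not between the third and the highest. The lowest vehicle level of these rank groups, 44.2 CPM, was above the highest retinoic acid level, 8.17 CPM. With groups set by fixed limits the levels overlapped: vehicle Bcl2 was at 12.9 CPM (3.50 to 32.9) in the 38 cells above 5%, from 4 counts, and retinoic acid Bcl2 at 17.3 CPM (12.9 to 22.7) in the 165 cells up to 0.1%. The thinned share of cells with a Bcl2 UMI went from 27.8% to 19.2% under vehicle and from 3.66% to 1.07% under retinoic acid.

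Bcl2l11 went the other way under retinoic acid, at 7.70 CPM (6.76 to 8.73), 10.0 CPM (8.95 to 11.2), 12.3 CPM (11.0 to 13.7) and 18.8 CPM (16.8 to 21.0). The log2 ratio of the highest over the lowest group was 1.29 (1.04 to 1.54). Under vehicle it lay between 3.29 and 4.51 CPM with overlapping intervals. The count of Bcl2 UMIs per Bcl2l11 UMI was 19.2, 21.5, 15.7 and 9.81 along the vehicle groups and 1.06, 0.648, 0.331 and 0.111 along the retinoic acid groups. In the highest retinoic acid group there were 35 Bcl2 counts and 315 Bcl2l11 counts.

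Bbc3 was at 12.4, 13.3, 14.7 and 21.3 CPM along the retinoic acid groups, a log2 ratio of 0.78 (0.57 to 0.99). It was thus higher in cells with more granule RNA, although the library as a whole was below vehicle, where Bbc3 lay between 24.1 and 28.5 CPM. Bid was at 39.2, 39.9, 40.6 and 30.1 CPM under retinoic acid, a log2 ratio of -0.38 (-0.54 to -0.23), the lower level being in the highest group alone. That log2 ratio was -0.22 ranked by a broader granule list, and -0.036 where that list was also left out of the total.

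Mcl1 was at 117, 121, 132 and 156 CPM along the retinoic acid groups, a log2 ratio of 0.41 (0.34 to 0.48), and between 107 and 112 CPM along the vehicle groups. The number of Mcl1 UMIs per Bcl2 UMI was 1.41 in the lowest vehicle group and 74.5 in the highest retinoic acid group. Bcl2l1 was at 11.2, 12.7, 14.0 and 15.2 CPM under retinoic acid, a log2 ratio of 0.44 (0.20 to 0.68). Bax was at 249.98, 313, 352 and 336 CPM under retinoic acid, highest in the third group, with a log2 ratio of 0.43 (0.38 to 0.48) between the outer groups. Bak1 was at 56.8, 57.0, 56.3 and 48.9 CPM, a log2 ratio of -0.22 (-0.34 to -0.10), and 0.05 with groups set by fixed limits of the share. Ranked by a broader granule list it was -0.17, and 0.02 where that list was also left out of the total.

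In the retinoic acid library 8 members passed a mean of 5 CPM over the outer groups. Of these, 1 was past 2-fold higher (Bcl2l11) and 1 past 2-fold lower (Bcl2). Bcl2 passed only through the lowest group, at 8.17 CPM there and 2.09 CPM in the highest. Of the 8676 genes compared there, 5.35% were past 2-fold higher and 6.65% past 2-fold lower, and their median log2 ratio was -0.19 against 0.42 for the 8 members. In the vehicle library 7 members passed (Bcl2l11 did not) and none was past 2-fold in either direction, beside 0.541% of 8871 genes higher and 0.282% lower. From the list of 42 other genes, 35 passed under retinoic acid. The BH3-only gene Bik (log2 ratio 2.13, 1.79 to 2.48) and the cell cycle inhibitor Cdkn1a (1.33, 1.26 to 1.41) were past 2-fold higher in the highest group. Diablo (-1.12, -1.32 to -0.92) was past 2-fold lower there. Bik, with a mean of 8.55 CPM and a 4.37-fold ratio, passed only through the highest group.

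**Figure D3:**
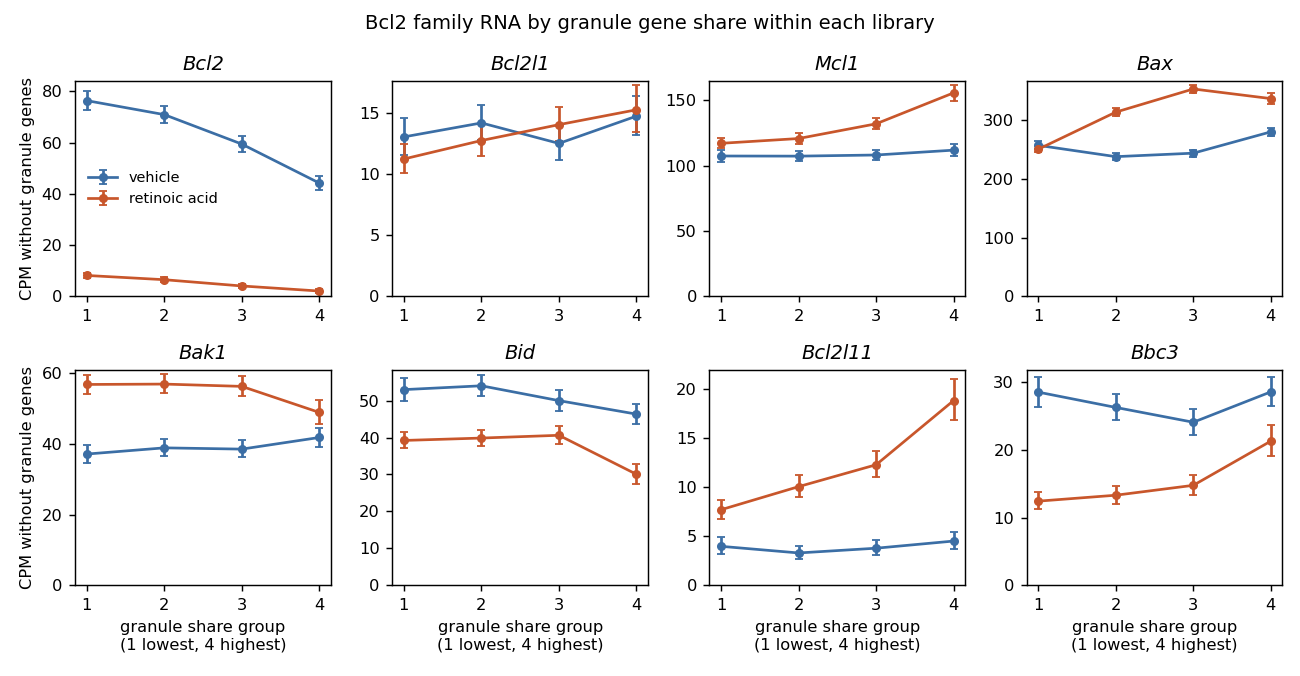
Levels of the 8 members above 5 CPM, in CPM with the 4 granule genes left out of the total, in the 4 rank groups of granule share of each library (1 lowest, 4 highest), with 95% intervals that cover counting error only. Under retinoic acid Bcl2 goes from 8.17 to 2.09 CPM and Bcl2l11 from 7.70 to 18.8 CPM.

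The libraries were also compared among cells in the same range of the share. At 0.1 to 1%, there were 654 vehicle cells and 2434 retinoic acid cells. Bcl2 was at 40.2 CPM and 7.21 CPM there, a log2 ratio of -2.48 (-2.69 to -2.27), and Bbc3 at 30.4 CPM and 12.6 CPM, -1.27 (-1.47 to -1.07). Both were past 2-fold lower, 2 of the 8 members that passed, beside 4.88% of the 8817 genes. None of the 8 was past 2-fold higher, beside 1.80% of genes, with Bcl2l11 at 4.35 CPM and 8.39 CPM, a log2 ratio of 0.93 (0.51 to 1.41). Bak1 had a log2 ratio of 0.45, Mcl1 of 0.15, Bcl2l1 of 0.00, Bax of -0.13 and Bid of -0.21, around a median over all genes of 0.10. For Bcl2 the gap was thus present within this range, at a smaller size than over whole libraries. Within it the median share was 0.177% under vehicle and 0.457% under retinoic acid.

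In the other ranges 1 library had few cells: up to 0.1% there were 4703 vehicle and 165 retinoic acid cells, at 1 to 5% there were 81 and 2388, and above 5% there were 38 and 2153. Bcl2 was lower under retinoic acid in each, with log2 ratios of -1.92 (-2.36 to -1.54), -2.57 (-3.08 to -1.98) and -2.65 (-3.94 to -0.56). Bcl2l11 had 0.94 (0.20 to 1.55), 0.80 (-0.16 to 2.22) and 0.01 (-1.09 to 1.78), so above 5% no gap in Bcl2l11 was detectable from the 5 vehicle counts. Mcl1 had -0.10 (-0.27 to 0.06), -0.13 (-0.36 to 0.11) and -0.73 (-1.04 to -0.37), the last against its direction over whole libraries. Bax had -0.25 (-0.37 to -0.14), 0.15 (-0.00 to 0.31) and 0.07 (-0.21 to 0.37), so up to 0.1%, as at 0.1 to 1%, it was lower under retinoic acid. Bbc3 had -1.33 (-1.91 to -0.84), -0.76 (-1.28 to -0.13) and -0.64 (-1.51 to 0.57).

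Phases of the cell cycle were called from S and G2M gene scores on thinned cells. Of the vehicle cells 48.6% were called G1, 18.4% S and 33.0% G2M, and of the retinoic acid cells 20.1%, 38.4% and 41.5%. Phase calls can read free RNA too, and they name no cycling state by themselves. Within each phase Bcl2 was lower under retinoic acid: 71.5 CPM against 3.29 CPM in G1, 53.9 against 5.03 CPM in S and 58.6 against 6.43 CPM in G2M. The log2 ratios were -4.43 (-4.88 to -4.03), -3.42 (-3.65 to -3.20) and -3.19 (-3.35 to -3.03). Bcl2l11 had log2 ratios of 1.28 in G1, 1.49 in S and 1.56 in G2M.

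Bbc3 was the member that differed most between phases. Under vehicle it was at 41.1 CPM (39.1 to 43.3) in G1, 20.5 CPM (18.5 to 22.6) in S and 17.4 CPM (16.2 to 18.7) in G2M. Under retinoic acid it was at 24.3 CPM (21.9 to 27.0), 14.2 CPM (13.1 to 15.4) and 11.4 CPM (10.5 to 12.3). Its log2 ratio between the libraries was -0.76 in G1, -0.53 in S and -0.62 in G2M. Each was nearer to 0 than the -0.91 of the whole libraries. The libraries hold different shares of G1 cells, and the phase values leave out the cells too shallow for thinning. The part of either in this difference was not tested.

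Along the granule share within phases, Bcl2 was lower in the highest retinoic acid group in all 3 phases. The log2 ratios were -2.22 (-3.75 to -1.02) in G1, -1.82 (-2.88 to -0.99) in S and -1.53 (-2.42 to -0.83) in G2M. They rest on 7, 12 and 16 Bcl2 counts in the highest group. For Bbc3 the log2 ratio was -0.03 (-0.43 to 0.38) in G1, 0.83 (0.48 to 1.18) in S and 0.62 (0.20 to 1.01) in G2M. Bcl2l11 had 0.23 (-0.37 to 0.87), 1.39 (1.01 to 1.77) and 1.51 (1.10 to 1.92). Bax had -0.00 in G1, 0.52 in S and 0.64 in G2M, and Mcl1 had 0.62, 0.29 and 0.25. The G1 values rest on few counts for the rarer genes, such as 23 and 7 Bcl2 counts and 36 and 63 Bcl2l11 counts in the outer groups.

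**Figure D4:**
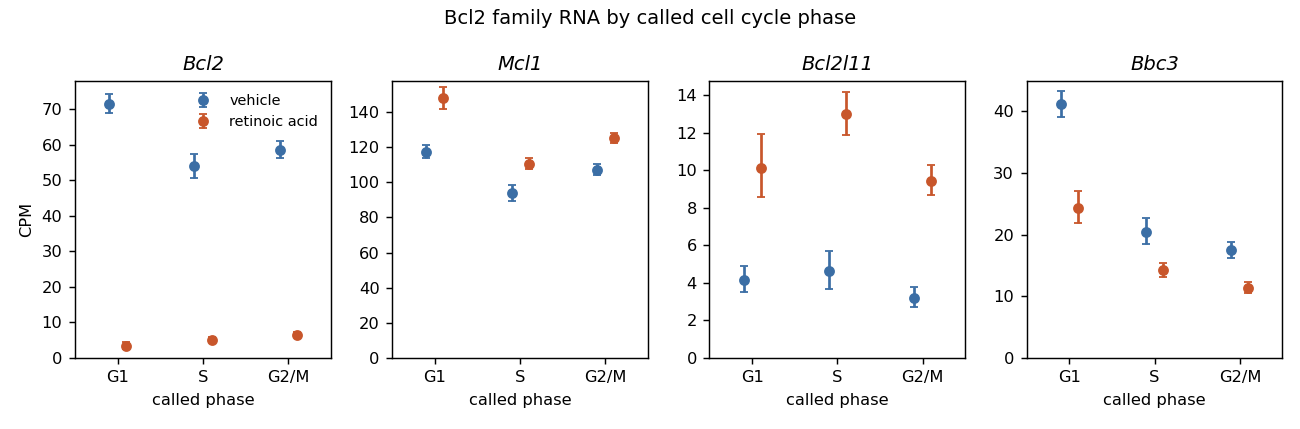
Levels of Bcl2, Mcl1, Bcl2l11 and Bbc3 in CPM by called cell cycle phase in each library, with 95% intervals that cover counting error only. Bbc3 is highest in cells called G1 in both libraries (41.1 and 24.3 CPM), and Bcl2 is lower under retinoic acid in every phase.

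Vehicle cells were also split by UMIs of Cpa3, a mast cell and basophil protease, and Mpo, a promyelocyte granule enzyme, after thinning. Bcl2 was at 76.3 CPM (73.8 to 78.9) in the 2549 cells with Cpa3 only and 61.2 CPM (56.6 to 66.0) in the 519 with both. It was at 48.8 CPM (45.2 to 52.7) in the 636 cells with Mpo only and 48.3 CPM (45.8 to 50.8) in the 1578 with neither. Each of these 4 levels was above the 5.49 CPM of the retinoic acid library, so Bcl2 was higher under vehicle also in cells without a Cpa3 UMI at that depth. Bbc3 was at 31.2 CPM with Cpa3 only, 25.2 CPM with both, 24.96 CPM with neither and 17.3 CPM with Mpo only. Mcl1 stayed between 104 and 113 CPM over the 4 classes, and Bcl2l11 between 3.38 and 4.85 CPM. Along the vehicle granule share, where Bcl2 was lower in each step, the 7 mast cell and basophil markers summed to 1123 CPM in the lowest group and 499 CPM in the highest.

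Genes were ranked by their Pearson correlation with each member over the 8 share groups (4 in each library, CPM on a log2 scale with 1 added). The highest were taken from 5237 genes with a mean of at least 20 CPM. They are given as descriptions: the groups of a library share its cells and depth. A correlation does not compare the size of differences, and the gap between the libraries enters it. For Bcl2 the highest were Papss2, Tgfb1 and Ciao2a, with Pearson correlations of 0.999 each. These genes were at 53.6, 293 and 328 CPM under vehicle and 20.6, 144 and 143 CPM under retinoic acid. Their fold differences were thus smaller than that of Bcl2. For Bcl2l11 they were S100a13 and Cebpd (0.998 each) and Cab39 (0.995), and for Bbc3 Bri3 (0.995), Bcor (0.994) and Nisch (0.992). For Mcl1 they were Hipk1 (0.998), Cdc42 (0.997) and H2-Ke6 (0.997), and for Bak1 Tiprl, Ndufb3 (0.997 each) and Psmb8 (0.994). Bid was nearest to Tmem230 (0.986), Slc3a2 (0.983) and Mfsd5 (0.983), Bax to Def6 (0.982), Orai2 (0.964) and Ssna1 (0.952), and Bcl2l1 to Parvg (0.954), Syf2 (0.943) and Wbp2 (0.930).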

How the data were processed

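Single-cell RNA was measured in 2 libraries, 1 per treatment. The authors deposited a matrix of UMI counts for each library, without normalization. Per the file headers they were made with Cell Ranger 4.0.0, and per the submitters' processing notes with builds mm10 and GRCm38.p4; the annotation and the cell-calling rule are not given in the sources used here. Cells with at least 1000 UMIs, at least 500 genes and at most 10% mitochondrial UMIs were kept. Counts were summed per library and scaled to CPM. Intervals are 95%: exact Poisson for levels, exact binomial for ratios and Clopper-Pearson for shares. UMIs remove most but not all amplification copies. Log2 ratios had 0.5 counts added. Genes with a mean of at least 5 CPM were compared, and 2-fold was the limit for a call. Cells were thinned to 5000 UMIs for shares and phases, which left out 194 vehicle and 481 retinoic acid cells. No doublet caller was run; removing the 5% of cells with most UMIs was an alternative. Gene positions are from GENCODE on GRCm38 (32158 of 32285 identifiers matched). Python 3.11.15, scipy 1.17.1, scanpy 1.11.5 and edgeR 4.0.16 (for TMM only) were used, and the ratio step was tested on simulated data. The named genes were the members whatever their values, and family genes and direct executioners or antagonists of the list of other apoptosis genes. Genes of that list past 2-fold and the 3 genes most correlated with each member were named too. For 1 gene that this rule names, values are not reported here. The members and lists were chosen with earlier results of these data known. Marker lists of eosinophils, monocytes, B cells, T or NK cells, erythroid and stem cells summed to 110, 80.9, 7.37, 1284, 3.91 and 74.8 CPM under vehicle and 28.9, 9.62, 44.8, 575, 0.763 and 16.9 CPM under retinoic acid. Single genes made up most of several of these sums. Of the T or NK cell list, Nkg7 was at 1283 CPM under vehicle and 575 CPM under retinoic acid. Cd3e and Trbc2 of that list had no count in either library. Under vehicle, Adgre1 was at 73.7 CPM of the monocyte sum and Cd34 at 53.8 CPM of the stem cell sum. Under retinoic acid, Ighm was at 42.6 CPM of the B cell sum. The 10 maturing neutrophil markers summed to 1636 and 62091 CPM.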

Additional observations from a re-analysis of the deposited data

Results flagged for a closer look

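Bak1, the second pore-forming gene, had opposite directions along the granule share in the libraries. The log2 ratio of the highest over the lowest share group was 0.17 (0.04 to 0.31) under vehicle and -0.22 (-0.34 to -0.10) under retinoic acid. The difference between the libraries was not tested, since each has 1 library and the groups cover different ranges of the share. The retinoic acid value was -0.17 ranked by the broader granule list, 0.02 where that list was also left out of the total, and 0.05 with fixed limits of the share.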

How the results depend on the processing

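No paired analysis was possible because each treatment had a single library, and for the same reason no library could be left out. Of 258 recomputed values, 160 stayed within their counting interval (counts of genes within 1.5 times), 94 moved by more and 4 changed direction. A change of direction was counted only where the first interval left out 0. Along the vehicle share, values whose intervals include 0 also changed sign in some settings. Examples are Bcl2l1 from 0.18 to -0.22 in S cells, and in G1 cells Bcl2l11 to -0.02 and Bbc3 to -0.14. Between whole libraries none of the 8 members above 5 CPM changed direction with other scaling, cell filters, weights, totals or pseudocount. Within subsets of cells signs changed for several members. Among them, Bcl2l1 changed to 0.07 (-0.17 to 0.31) in G1 cells, Bax to -0.13 at 0.1 to 1% granule share and Mcl1 to -0.73 above 5%. Above 5% Bak1 also changed to -0.51 (-1.08 to 0.21) and Bid to 0.60 (-0.41 to 2.17), with intervals that include 0. Bcl2 was -3.49 against vehicle cells without a Cd34 UMI after thinning, a setting added after seeing the data. That split does not separate Cd34- from Cd34+ cells. Moved log2 ratios of retinoic acid over vehicle were, with TMM scaling, Mcl1 0.27, Bax 0.31, Bak1 0.54 and Bid -0.38; with granule genes out of the total, Mcl1 0.24 and Bax 0.28; and with equal weight for every cell, Bcl2 -3.71, Mcl1 0.23 and Bax 0.14. TMM changed the numbers past 2-fold higher and lower from 257 and 492 to 295 and 438.

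Along the vehicle share, Bcl2 had -0.62 in G2M cells, -0.94 in G1 cells and -2.20 with fixed limits, where the highest group had 38 cells. Along the retinoic acid share, values with fixed limits were Bcl2 -2.92, Bcl2l1 0.82, Mcl1 0.58, Bax 0.74 and Bak1 0.053, the last a change of direction. The broad granule list, used for the ranking and left out of the total, gave Mcl1 0.61, Bax 0.61, Bid -0.036, Bbc3 1.03 and Bak1 0.018, the last again reversed. Used for the ranking alone, added after seeing the data, it gave Bid -0.22 and Bak1 -0.17. With the granule genes in the total, Mcl1 had 0.23, Bax 0.25, Bak1 -0.39 and Bid -0.56. In G1 cells alone Mcl1 had 0.62, Bid -0.64, Bcl2l11 0.23, Bax -0.0021 (-0.13 to 0.12) and Bbc3 -0.031 (-0.43 to 0.38). The last 2 are counted above as changes of direction, but their intervals include 0, so no difference was detectable there. In S cells Mcl1 had 0.29 and Bax 0.52, and in G2M cells Mcl1 0.25, Bax 0.64 and Bid -0.22; both phase settings were chosen after seeing the data. The cause of these changes was not tested.

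The number of genes past 2-fold between the libraries was 749, and 338 at a mean of 20 CPM, 1406 at 1 CPM, 3024 with at least 10 counts in all and 1723 past 1.5-fold. Along the share it was 73 under vehicle (25 at 20 CPM, 277 past 1.5-fold) and 1041 under retinoic acid (521 and 2737). Percentages of cells with a UMI follow the depth chosen: for Bcl2 16.5% and 1.34% at 3000 UMIs. Depth limits Bcl2a1b, Bcl2a1d and Bcl2l11 in small groups.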
